A study of Mus musculus with 6 samples.

Results

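The data were examined for 10 genes that are read as signs of macrophage polarization or that break down amino acids in myeloid cells: Arg1, Nos2, Ass1, Acod1, Ido1, Il4i1, Mrc1, Retnla, Cd163 and Ptgs2. They were chosen by name and found by Ensembl identifier among the 54232 genes in each table. The 6 libraries were made from inflammatory monocytes of the central nervous system (CNS) of mice with experimental autoimmune encephalomyelitis (EAE), a model of multiple sclerosis, at the peak of disease. The mice were mixed bone marrow chimeras: irradiated GFP+ recipients carried WT marrow (CD45.1) and Ifnar1-/- marrow (CD45.2), the latter lacking a subunit of the type I interferon receptor. WT (n = 3) and Ifnar1-/- (n = 3) cells were sorted as GFP-, CD45+, CD11b+, Ly6C-high and Ly6G-. Every mouse had received 30000 IU of recombinant IFN-β (rIFN-β) daily, so the comparison is of monocytes with and without the receptor in treated mice, and no library from untreated mice was analysed here. The chimeras numbered 3, and each held cells of both genotypes. Neither the labels nor the study's methods tie a library to a mouse, so the main test treated the 6 libraries as independent, and p-values measure the spread between these libraries only.

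Arginine is the shared substrate of arginase and of the inducible nitric oxide synthase, and the balance of both is the classical contrast between alternatively and classically activated macrophages. Tryptophan, phenylalanine and the tricarboxylic acid cycle are tapped in a similar way by Ido1, Il4i1 and Acod1, whose products kynurenine, phenylpyruvate and itaconate act on neighbouring cells or on the macrophage itself. Mrc1, Retnla and Cd163 carry no part of these reactions and are used as markers of alternative or resident macrophages, while Ptgs2 opens the synthesis of prostaglandins during inflammation.

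The libraries held 4531782 to 7321380 expected counts, and mitochondrial ribosomal RNA took 12.3 to 17.6% of them in WT and 15.1 to 22.7% in Ifnar1-/- libraries. Ifnar1 itself was counted 1073, 592 and 564 times in WT and 720, 599 and 595 times in Ifnar1-/- libraries, so gene counts could not check the genotype labels. Scaled for library size, Ifnar1 was higher in every WT library but was not called (log2 fold change, WT over Ifnar1-/-, 0.28, edgeR adjusted p = 0.360). Ptprc and Itgam, which encode CD45 and CD11b, were present in all 6 libraries, and Ly6g had 0 to 4 counts in each. Ly6c2, which encodes the sorted Ly6C antigen and has a near-identical neighbour with which reads may be shared, was higher in WT (log2 fold change 1.40, edgeR adjusted p = 0.00957). Of the 8 T cell markers tested, 0 were called but all 8 lay above 0, with a median log2 fold change of 1.61. All 8 had an unadjusted edgeR p under 0.05, as did 17.8% of all genes tested. The summed level of the 9 markers was 17.5 to 38.4 TPM (deposited transcript abundance, scaled for transcript length and library total) in WT against 6.68 to 12.1 in Ifnar1-/- libraries. The sums of the Ly6C-high monocyte markers (3839 to 5389 TPM in WT, 2876 to 3638 in Ifnar1-/- libraries) and of the B cell markers (1.04 to 1.53 and 0.26 to 0.85) also separated the groups. Of the 10 monocyte markers, however, 8 lay above 0 and 2 below. Ccr2 was among the latter and was lower in every WT library (log2 fold change -0.62, edgeR adjusted p = 0.143). Of the 6 B cell markers 0 were tested and 5 had at most 3 counts in every library, so their sum rests on few reads. The sums overlapped for neutrophils, at 196 to 1622 TPM in WT and 430 to 1226 in Ifnar1-/- libraries, for microglia, at 104 to 193 and 145 to 215, and for dendritic cells, at 7.90 to 12.7 and 4.81 to 11.5. The part of these cells in the results below was not tested. In bulk libraries, fewer cells that express a gene and less RNA per cell cannot be told apart.

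Arg1 was among the most abundant messages of the sorted monocytes, and the set ranged from there down to genes with a few reads or none in each library. Levels of different genes are compared here in TPM. Arg1, the cytosolic arginase, stood at 1860, 2594 and 2124 TPM in the WT libraries and at 2484, 3078 and 2230 TPM in the Ifnar1-/- libraries, and ranked between 9 and 19 among 21906 protein-coding genes. Ass1, Acod1 and Nos2 followed with medians over the 6 libraries of 263, 152 and 117 TPM. Ptgs2 (10.8 TPM) and Mrc1 (6.28 TPM) were lower, Il4i1 was near 1 TPM, and Ido1, Cd163 and Retnla had at most 3 counts in any library. By these medians Arg1 lay clear of Ass1, Nos2 of Ptgs2, and Mrc1 of Il4i1, with no overlap between libraries. Acod1 overlapped both Ass1 and Nos2 across libraries, although Ass1 exceeded Acod1 in 6 of 6 libraries and Acod1 exceeded Nos2 in 5 of 6. Ptgs2 and Mrc1 also overlapped across libraries, with Ptgs2 the higher in each of the 6.

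**Figure D1:**
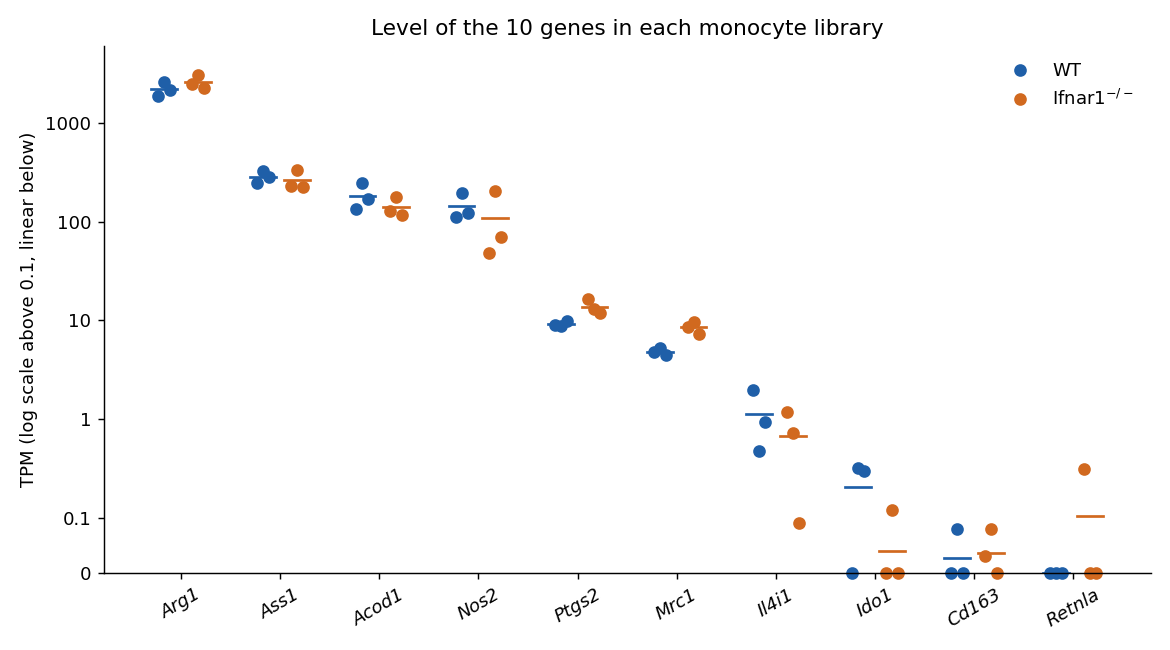
Level of each of the 10 genes in TPM (vertical axis, logarithmic above 0.1 and linear below) in the 3 WT (blue) and 3 Ifnar1-/- (orange) libraries, with a line at each group mean. Arg1 lies between 1860 and 3078 TPM, whereas Ido1, Cd163 and Retnla lie at or near 0.

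The first question was whether loss of the receptor changed any of these genes. Counts were fitted for all 11254 genes that passed a filter on low counts, and a gene was called at an edgeR adjusted p of at most 0.05 with a change of at least 1.5-fold. Of all genes tested, 240 were called (2.13%), 188 of them higher in WT (1.67%) and 52 lower (0.462%). Of the 10 members, 6 passed the filter and 0 were called, 3 lying on each side of 0. Their median log2 fold change, WT over Ifnar1-/-, was -0.05, against -0.01 for all genes tested. At an unadjusted p under 0.05 there were 2 of the 6, Mrc1 and Ptgs2, where 17.8% of all genes passed. Both were lower in WT in every library, as were 12.2% of all genes. No tested member was higher in WT in every library, which cannot be judged without the share of all genes in that direction. DESeq2, which called 0.959% of its genes lower in WT, called 1 member, Mrc1.

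The arginine genes did not pass the test in either direction. Normalized CPM, counts scaled for library size, of Arg1 were 3236, 3119 and 2546 in WT and 3532, 3799 and 3188 in Ifnar1-/- libraries. The groups overlapped, since the lowest Ifnar1-/- library lay below the highest WT library. The log2 fold change was -0.24 (95% interval -0.65 to 0.16, edgeR adjusted p = 0.530), with 12898 to 23130 counts behind the values. Arg1 (chromosome 10, 24915221 to 24927484, minus strand, GRCm38) has no overlapping gene in the annotation. Its mitochondrial counterpart Arg2 was at 17.7 to 27.8 TPM, so that Arg1 exceeded it by 84.1 to 105 times in WT and by 95.4 to 148 times in Ifnar1-/- libraries.

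Nos2, the inducible nitric oxide synthase that competes with arginase for arginine, was the most variable of the 6 tested members. It was at 628, 765 and 481 CPM in WT and at 220, 807 and 321 CPM in Ifnar1-/- libraries. The second Ifnar1-/- library was the highest of all 6, while the other 2 were below every WT library. The log2 fold change was 0.47 ± 0.40 (SE, 95% interval -0.41 to 1.36, adjusted p = 0.576 by edgeR). Without Ifnar1-/- replicate 2 it was 1.22 (edgeR adjusted p = 0.0578), which still missed the threshold, and without Ifnar1-/- replicate 1 it was 0.15. Nos2 lies on chromosome 11 (78920787 to 78960254, plus strand). The TPM ratio of Arg1 to Nos2 was 16.7, 13.2 and 17.2 in WT and 52.2, 14.9 and 31.8 in Ifnar1-/- libraries, in other words arginase transcripts outnumbered those of the synthase in all 6.

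Ass1 joins citrulline to aspartate and, with Asl, returns citrulline from nitric oxide synthesis to arginine. It was at 516, 479 and 404 CPM in WT and at 390, 491 and 390 CPM in Ifnar1-/- libraries, and these ranges overlapped. The log2 fold change was 0.14 (95% interval -0.23 to 0.50, edgeR adjusted p = 0.708). Ass1 (chromosome 2, 31470207 to 31520672, plus strand) had counts that were not whole, which is how RSEM writes reads that it divides among genes. Asl, which completes the cycle, was much lower per length, with Ass1 13.9 to 18.6 times above it. Of 7 TPM ratios between genes of these pathways, that of Arg1 to Ass1 was the only one whose groups did not overlap: it was 7.57, 7.90 and 7.59 in WT and 10.9, 9.35 and 9.86 in Ifnar1-/- libraries. Neither gene separated the groups by itself. This ratio was given no test, and the share of other gene pairs whose ratio separates the groups was not computed. With 3 against 3 libraries, a separation in 1 of 7 ratios cannot be told from chance.

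Around these enzymes, 17 of the 23 genes listed for arginine transport, nitric oxide and polyamine synthesis were tested and 0 were called, with 9 above 0, 8 below and a median log2 fold change of 0.01. Slc7a2, an arginine transporter of activated macrophages, was at 64.4 to 132 TPM (log2 fold change -0.27, edgeR adjusted p = 0.443). Odc1, which turns the ornithine made by arginase into putrescine, was at 47.7 to 70.6 TPM (-0.07, adjusted p = 0.846). Gch1 makes the first step towards tetrahydrobiopterin, the cofactor of nitric oxide synthase. Its levels were 11.4, 18.9 and 17.2 TPM in WT and 11.5, 9.81 and 11.5 TPM in Ifnar1-/- libraries, and in CPM each WT library was the higher (log2 fold change 0.48, edgeR adjusted p = 0.155). The 3 genes Nos1, Otc and Cps1 had 0 counts in every library.

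Acod1, the mitochondrial enzyme that makes itaconate from cis-aconitate, was higher on average in WT, with a difference that did not pass the test. It was at 464, 577 and 398 CPM in WT and at 359, 429 and 325 CPM in Ifnar1-/- libraries, with 1 Ifnar1-/- library above the lowest WT library. The log2 fold change was 0.37 ± 0.18 (SE, 95% interval -0.03 to 0.77) and was not called (edgeR adjusted p = 0.314). Acod1 lies on chromosome 14 (103046977 to 103056573, plus strand). All 21 genes listed for itaconate and the tricarboxylic acid cycle were tested, 0 were called, and 18 lay below 0 with a median of -0.14, so Acod1 was 1 of 3 above 0.

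The genes that break down tryptophan and phenylalanine were nearly silent in these monocytes. Ido1, which opens the kynurenine pathway and is a familiar interferon target, had 0, 2 and 2 counts in WT and 0, 1 and 0 in Ifnar1-/- libraries. In no library did it exceed 3 counts, which correspond to 0.21 to 0.48 TPM for this gene, and no fold change is given. Ido2 had 0 counts throughout. Il4i1, a secreted oxidase of aromatic amino acids, had 30, 4 and 8 counts in WT and 12, 3 and 1 in Ifnar1-/- libraries, with overlapping groups and too few reads for the test. Il4i1 (chromosome 7, 44816387 to 44840809, plus strand) overlaps Nup62 on the same strand, which makes these few counts uncertain. Ido1 is on chromosome 8 (24584136 to 24597009, minus strand).

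Downstream of Ido1 some enzymes were present. Kynu, which cleaves kynurenines, was at 4.80 to 13.4 TPM (log2 fold change -0.11, edgeR adjusted p = 0.900). Kmo, the kynurenine hydroxylase, was at 3.08, 2.01 and 1.30 TPM in WT and 1.62, 0.54 and 1.51 TPM in Ifnar1-/- libraries (1.25 ± 0.50, SE, adjusted p = 0.228 by edgeR), with overlap in TPM. Without the filter on low counts, edgeR called Kmo higher in WT. Wars, the tryptophanyl-tRNA synthetase, was at 49.9 to 98.9 TPM (-0.08, adjusted p = 0.880), and Slc7a5, a subunit of the transporter that brings tryptophan into cells, at 13.4 to 22.3 TPM (-0.26, adjusted p = 0.555). Of the 18 listed genes found by name, 10 were tested and 0 called, with a median of -0.09.

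Mrc1, the mannose receptor CD206 (chromosome 2, 14229392 to 14332057, plus strand), was the member with the smallest p. Counts were 245, 124 and 110 in WT and 336, 288 and 237 in Ifnar1-/- libraries, or 34.9, 26.4 and 21.7 CPM against 51.3, 48.8 and 43.6. The groups did not overlap, with means of 47.9 ± 3.94 CPM in Ifnar1-/- and 27.6 ± 6.67 CPM in WT monocytes (SD, n = 3 each). Mrc1 was thus 1.72-fold higher without the receptor (95% interval 1.30 to 2.28), with a log2 fold change, WT over Ifnar1-/-, of -0.79 ± 0.18 (SE) and an edgeR adjusted p of 0.0610, just outside the threshold. DESeq2 placed it inside (-0.77, adjusted p = 0.0263), as did leaving out WT replicate 1 (-0.99, edgeR adjusted p = 0.0154). Leaving out any other single library left Mrc1 outside, with edgeR adjusted p from 0.118 to 0.241. With the replicate number as a block, edgeR called it (-0.81, adjusted p = 0.0413) and DESeq2 did not (-0.80, adjusted p = 0.0645). A two-sided exact permutation test over libraries gave p = 0.1, the smallest that 3 against 3 allows.

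Retnla and Cd163, the other marker genes of alternative or resident macrophages, were all but absent. Retnla, which encodes the secreted protein RELMα (chromosome 16, 48842551 to 48844461, plus strand), had 1 count in Ifnar1-/- replicate 1 and 0 in the other 5 libraries, where 3 counts correspond to 0.75 to 1.63 TPM. Cd163, the scavenger receptor for haemoglobin (chromosome 6, 124304656 to 124330527, plus strand), had 0, 1 and 0 counts in WT and 1, 2 and 0 in Ifnar1-/- libraries. Mrc1 is also expressed by border-associated macrophages of the CNS. Of 10 markers of those cells, F13a1 (166 to 282 TPM) and Clec4n (75.4 to 122 TPM) made up most of the sum and were not called, and Siglec1, also an interferon-induced gene, was called higher in WT (log2 fold change 3.02, edgeR adjusted p = 0.00177). Of the others, Lyve1, Cd209f, Cd209b and Timd4 had 0 counts in every library, and Folr2 had at most 3. The summed level of the 10 overlapped between WT (311 to 396 TPM) and Ifnar1-/- libraries (361 to 388 TPM).

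A further marker taken for alternative activation, the chitinase-like protein gene Chil3, was in contrast as abundant as Arg1. It was at 1485, 3981 and 3370 TPM in WT and at 3298, 4698 and 3834 TPM in Ifnar1-/- libraries (log2 fold change -0.50, edgeR adjusted p = 0.309), or 0.80 to 1.72 times Arg1. In total 21 of the 26 genes listed for alternative activation were tested and 0 were called, 9 lying above 0 and 12 below, with a median of -0.04. The list for classical activation had 21 of 24 genes tested and 2 called, both higher in WT. These were Cxcl10, an interferon-induced chemokine, at 86.1, 146 and 102 TPM in WT and 45.5, 54.2 and 49.5 TPM in Ifnar1-/- libraries (log2 fold change 1.02, edgeR adjusted p = 0.00444), and Cd40. This co-stimulatory receptor was at 42, 44.8 and 38.1 CPM in WT and 23.4, 23 and 22.1 CPM in Ifnar1-/- libraries (0.87, edgeR adjusted p = 0.00936), and it was not called without Ifnar1-/- replicate 3. Irf1, an interferon-induced transcription factor, was not called (0.01, edgeR adjusted p = 0.989).

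Ptgs2, the inducible cyclooxygenase, was also lower in WT. It was at 54.1, 36.6 and 40.9 CPM in WT and at 81.1, 55.1 and 57.6 CPM in Ifnar1-/- libraries. The groups did not overlap, but the lowest Ifnar1-/- library was only just above the highest WT library. Ptgs2 was 1.47-fold higher without the receptor (95% interval 1.08 to 1.99; log2 fold change, WT over Ifnar1-/-, -0.55 ± 0.20, SE) and was not called (edgeR adjusted p = 0.179). Without the filter on low counts its edgeR adjusted p was 0.0324, and the 1.5-fold threshold alone kept it from being called. Without Ifnar1-/- replicate 1, its highest library, the value was -0.34 (adjusted p = 0.535 by edgeR). Ptgs2 (chromosome 1, 150100031 to 150108227, plus strand) lies 11.9 Mb from Ptprc, the gene of the CD45.1 and CD45.2 alleles, and a difference between the donor strains near that locus cannot be told apart from the genotype.

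**Figure D2:**
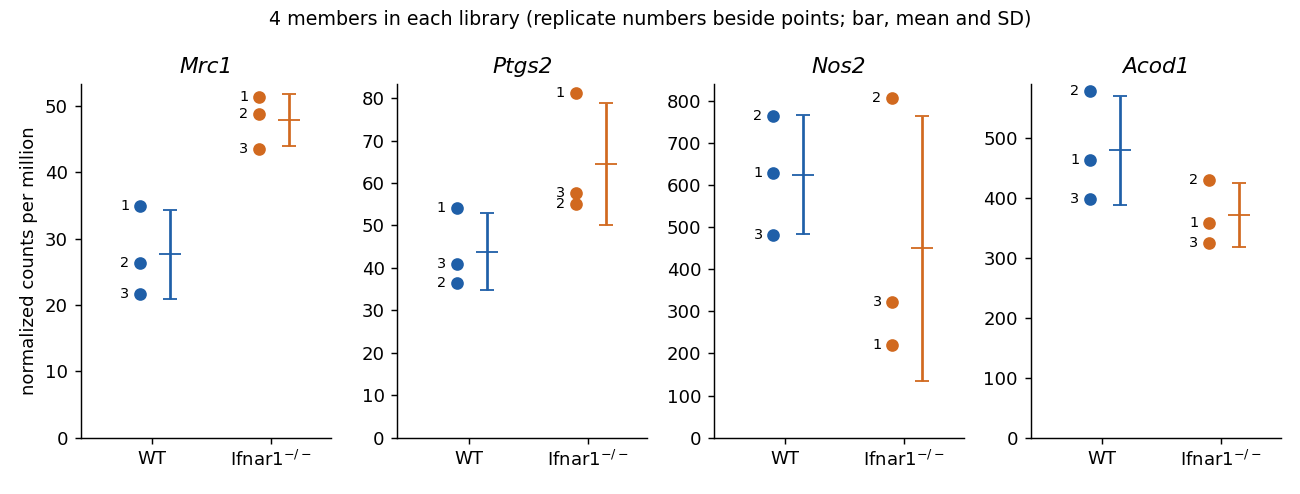
Normalized CPM (vertical axes, from 0) of Mrc1, Ptgs2, Nos2 and Acod1 in each WT (blue) and Ifnar1-/- (orange) library, numbered by replicate, with the mean and SD of each group beside the points. Mrc1 and Ptgs2 separate the groups, while Ifnar1-/- replicate 2 is the highest library for Nos2.

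Of the genes for prostanoid and leukotriene synthesis, 13 of 20 were tested, 0 were called, and 11 lay below 0 with a median of -0.11. The constitutive cyclooxygenase Ptgs1 was at 7.66, 12.5 and 11.8 TPM in WT and 10.9, 17.2 and 22.2 TPM in Ifnar1-/- libraries (log2 fold change -0.38, edgeR adjusted p = 0.300), so Ptgs2 was between 0.53 and 1.51 times Ptgs1. Ptges, the inducible prostaglandin E synthase, was at 2.16 to 5.33 TPM (-0.02, adjusted p = 0.980).

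**Figure D3:**
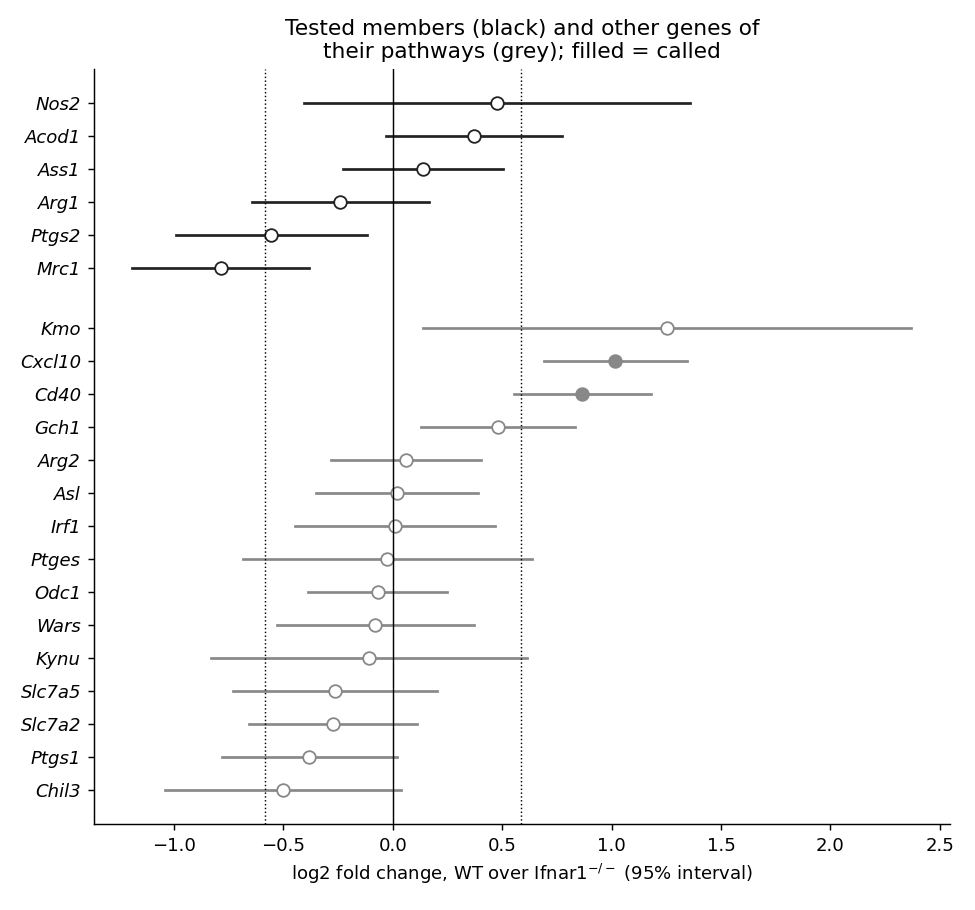
Log2 fold change, WT over Ifnar1-/- (horizontal axis), with its 95% interval for the 6 tested members (black) and other genes of their pathways (grey). Filled points are called, dotted lines mark a 1.5-fold change, and only the intervals of Mrc1 and Ptgs2 among the members exclude 0, both on the side of lower expression in WT.

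**Figure D4:**
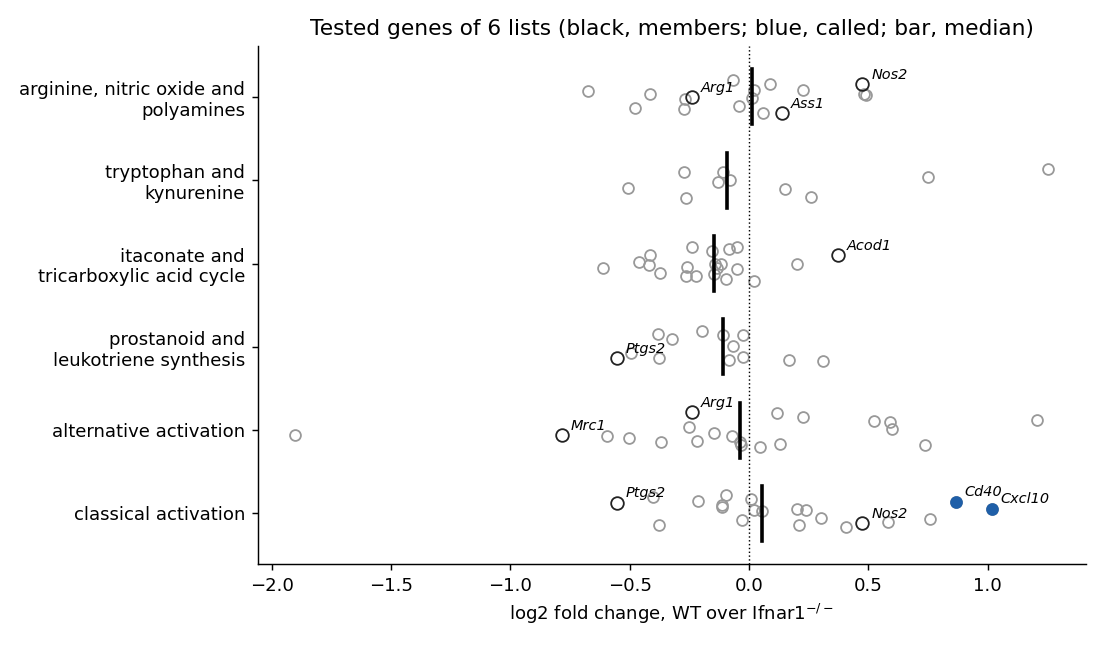
Log2 fold change, WT over Ifnar1-/- (horizontal axis), of every tested gene in 6 lists, with members in black and labelled, called genes in blue and a bar at each list's median. Medians run from -0.14 to 0.06, and Cxcl10 and Cd40 are the called genes.

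For each tested member the gene with the most similar profile over the 6 libraries was found as the smallest root mean square difference of centred log2 CPM. These were Nop2 for Arg1 (0.034), Vasp for Ass1 (0.033), Minpp1 for Acod1 (0.056), Mettl1 for Mrc1 (0.078), Arhgef40 for Nos2 (0.097) and Nxt1 for Ptgs2 (0.103). Such closeness over 6 libraries is a description. Arhgef40, which followed the uneven Nos2 values, was itself at 0.92 to 4.41 CPM.

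Promoter sequences of 7 members could be read from RefSeq (GRCm38.p6). They are shown for the pair of genes that separated the groups, for Acod1, and for Retnla, which was silent, so that the searched letters can be seen. Each runs 5′ to 3′ on the plus strand and ends before the first annotated base of the gene, and capitals mark motif matches. Mrc1 covers chr2:14229164-14229391, Ptgs2 chr1:150099781-150100030, Acod1 chr14:103046762-103046976 and Retnla chr16:48842359-48842550.
Mrc1: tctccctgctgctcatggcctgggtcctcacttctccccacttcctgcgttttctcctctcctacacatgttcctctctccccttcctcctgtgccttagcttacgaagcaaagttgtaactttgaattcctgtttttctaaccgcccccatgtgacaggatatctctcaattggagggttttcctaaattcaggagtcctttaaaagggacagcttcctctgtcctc
Ptgs2: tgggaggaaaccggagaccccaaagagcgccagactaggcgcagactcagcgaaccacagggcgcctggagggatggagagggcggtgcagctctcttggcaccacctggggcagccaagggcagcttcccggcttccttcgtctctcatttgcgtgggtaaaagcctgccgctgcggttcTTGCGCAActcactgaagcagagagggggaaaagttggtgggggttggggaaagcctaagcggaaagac
Acod1: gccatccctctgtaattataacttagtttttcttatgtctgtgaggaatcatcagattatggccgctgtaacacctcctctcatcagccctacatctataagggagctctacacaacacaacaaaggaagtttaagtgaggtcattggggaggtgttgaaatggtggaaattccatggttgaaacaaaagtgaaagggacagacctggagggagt
Retnla: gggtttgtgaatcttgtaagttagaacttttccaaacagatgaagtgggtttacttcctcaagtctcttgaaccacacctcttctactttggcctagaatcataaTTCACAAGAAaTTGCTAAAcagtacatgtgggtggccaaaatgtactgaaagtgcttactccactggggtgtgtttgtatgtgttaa

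The 250 bases before the RefSeq start of each gene were searched on both strands. The core of the interferon-stimulated response element, GAAANNGAAA, was found in 0 of the 7 members and in 2.98% of 32851 promoters. The STAT6 motif TTCNNNNGAA, held by 5.85% of promoters, occurred only in Retnla, as TTCACAAGAA from 145 to 136 bases before the start. Separated from it by 1 base was a match to the C/EBP motif TTGCNNAA (9.56% of promoters), and Ptgs2 held the palindromic match TTGCGCAA from 69 to 62 bases before its start. The NF-kB consensus (7.25%) and the cyclic AMP response element TGACGTCA (1.55%) had no match in the 7. The TATA box TATAAA (12.4%) was found in Acod1 and Retnla, in bases not printed above. Mrc1 had no match to any of the 6 motifs, which says only that these letters are not in this window.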

How the data were processed

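Total RNA of sorted monocytes was sequenced in 6 libraries. The authors aligned reads to GRCm38 with STAR 2.6.0c and RSEM 1.2.31, and deposited expected counts and TPM per gene (versions per the labels). The labels and the methods name different stranded library kits, and the annotation release was not given in the sources used here. Here 54079 of 54232 identifiers matched GENCODE M21 symbols once versions were removed. Deposited expected counts were rounded, filtered with filterByExpr (minimum count 10), scaled by TMM and tested with the edgeR 4.0.16 quasi-likelihood test, 3 WT against 3 Ifnar1-/-. P-values were adjusted by Benjamini-Hochberg over all genes tested, and adjusted p-values without a named tool are from edgeR. Intervals are 95% from the fit. DESeq2 1.42.0, limma 3.58.1, other scalings, filters and units, and leaving out each library were alternatives. Normalized CPM uses TMM library sizes. At these depths 3 counts correspond to 0.427 to 0.638 CPM, a floor that covers counting error only. The methods were tested on simulated data. Named genes were the members, sort markers, fixed reaction partners (1 is not reported here), at most 4 called genes per list and direction, and nearest profiles. The members and lists were chosen with earlier results of these data known.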

Additional observations from a re-analysis of the deposited data

How the results depend on the processing

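The log2 fold changes of the 6 tested members kept their direction under all 17 alternatives. The alternative that dropped only the fold threshold reused the main fit, so its fold changes could not differ. Arg1, Nos2, Ass1, Acod1 and Ptgs2 were called under none of the 17. Mrc1 was called under 4: DESeq2 (-0.77), no filter on low counts (-0.79, edgeR adjusted p = 0.000724), the replicate block (-0.81, edgeR adjusted p = 0.0413) and leaving out WT replicate 1. Its adjusted p ran from 0.000724 to 0.473 over the alternatives. Called members lower in WT were therefore 1 under DESeq2, without the filter and with the replicate block, and 0 to 1 when 1 library was left out, whereas 0 were called higher under any alternative. Leaving out 1 library at a time gave -0.99 to -0.62 for Mrc1, -0.73 to -0.34 for Ptgs2, 0.15 to 1.22 for Nos2, 0.23 to 0.51 for Acod1, 0.07 to 0.27 for Ass1 and -0.30 to -0.12 for Arg1.

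Over all genes, DESeq2 called 314 higher and 105 lower in WT, edgeR without a filter 610 and 262, limma on log2(TPM + 1) 112 and 16, and limma on log2(TPM + 0.1) 111 and 13. Leaving out 1 library gave 110 to 204 higher and 7 to 41 lower; a change of over 1.5 times came for higher genes without Ifnar1-/- replicates 1 or 3 and for lower genes without any library other than WT replicate 2. In the pathway lists, genes called higher numbered 4 without a filter, namely Cd40, Cxcl10, Klf4 and Kmo. They numbered 1 on either TPM scale and 1 to 3 with 1 library left out. Those called lower were 2 under DESeq2 (Idh3a and Mrc1), 4 without a filter (Ccl24, Cd200r1, Idh3a and Mrc1), 1 on log2(TPM + 1) (Ccl24), 2 with the replicate block (Ccl24 and Mrc1), 1 with the replicate block in DESeq2 (Ccl24) and 0 to 2 with 1 library left out. Idh3a, Ccl24, Cd200r1 and Klf4 were singled out with their values known. The cause of these differences was not tested. Samples with the same replicate number had correlated deviations of 0.0906, 0.0278 and 0.275, against -0.196 to 0.0920 between unlike numbers. Whether libraries share a mouse cannot be settled from these values. Nothing else ties a number to a mouse, so the numbers were not taken to pair libraries. The replicate block changed the count for all genes to 182 higher and 38 lower. With 3 libraries a group, changes well under 1.5-fold and genes of a few counts, such as Il4i1, could not be resolved. Larger changes could also be missed. Mrc1, 1.72-fold higher without the receptor, was not called in the main test, and the 95% interval of Nos2 ran from 0.75-fold to 2.56-fold, WT over Ifnar1-/-.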
